A study of Mus musculus with 2 samples.

Results

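The cells described here were neurons of the newborn mouse hypothalamus that carried RNA of the homeobox gene Otp together with RNA of Fezf1, Zic1 or Zic4, and little RNA of Trh. They were chosen from a Drop-seq data set by their own counts: at least 300 detected genes, at least 1 unique molecular identifier (UMI, a tag on each captured RNA molecule) of Otp, a sum of at least 2 UMIs over Fezf1, Zic1 and Zic4, and fewer than 2 Trh UMIs. Of 5260 cells with at least 300 genes, 314 met this gate and are called members below. They comprised 102 of 2454 cells in the Sim1 het library and 212 of 2806 cells in the control library. Because the gate read these counts, levels of the 5 gate genes in members are fixed by the choice and are given only as a description, and no comparison of members with other cells is a test.

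Both libraries came from CD-1 pups, an outbred stock, at postnatal day 1 to 4. The Sim1 het pups carried Sim1-Cre, the Ai14 tdTomato reporter and 1 lost copy of Sim1, and the control pups carried Sim1-Cre and the same reporter with no Sim1 loss given in the labels. Per the sample labels the hypothalami of 6 pups were pooled for each genotype, and tdTomato-positive cells were sorted by flow cytometry, so every cell in both groups was taken for a reporter that marks where the Sim1-driven Cre was active at some time. There was 1 library per genotype, so no replicate spread exists, no p-value is given, and differences between genotypes are differences between 2 pools. The mix of sexes and ages within a pool is not given.

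Otp and Sim1 are transcription factors needed for the neurosecretory neurons of the paraventricular and supraoptic nuclei to form, among them those that make oxytocin, vasopressin, corticotropin-releasing hormone (Crh), thyrotropin-releasing hormone (Trh) and somatostatin (Sst). Fezf1 is a zinc finger repressor of the early forebrain, and the Zic genes encode a family of zinc finger factors that often act in the same tissue and lie in head-to-head pairs in the genome. Zic1 and Zic4 form such a pair, and so do Zic2 and Zic5. Cbln1 and Car10, given as markers together with the gate genes, encode secreted proteins that bind neurexins, the presynaptic adhesion receptors.

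The Sim1 het library held 2476 barcodes and 5397693 UMIs, and the control library held 2807 barcodes and 6525080 UMIs. No barcode was shared by both. Members were deeper than the rest, and a gate on several UMIs of scarce genes itself favours deep cells. The median member had 2542 UMIs in the Sim1 het library and 2280 in the control library, against 1539.5 and 1741 in all other cells. Levels below are UMIs summed over cells per 1000000 UMIs of those cells (CPM). Ratios are log2 values with a pseudocount of 1 UMI, and brackets hold 95% intervals for counting error only, which take every UMI as independent although 1 cell gives many.

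Members made up 4.16% [3.40 to 5.02] of Sim1 het cells and 7.56% [6.6 to 8.60] of control cells, a ratio of shares of 0.550 [0.430 to 0.70]. Cells with any Otp UMI were also scarcer in the Sim1 het library, at 17.6% [16.1 to 19.2] of cells against 29.1% [27.4 to 30.8] in the control library. Counted among Otp cells alone, members took 23.6% [19.7 to 27.9] of 432 Sim1 het cells and 25.9% [23.0 to 29.1] of 817 control cells. The share of members was thus lower in the Sim1 het library together with the share of Otp cells, and the intervals of the shares within Otp cells overlapped. When every cell was thinned to 1000 UMIs and gated again, members were 39 of 1704 Sim1 het cells (2.29%) and 82 of 2442 control cells (3.36%), and the interval of their ratio, 0.682 [0.453 to 1.01], held 1. The tdTomato sort can set both shares, and its part was not tested.

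Most members entered through Zic1 or Zic4. Of the 102 Sim1 het members, 72 had a Zic UMI and no Fezf1 UMI, 27 had both and 3 had Fezf1 alone. Of the 212 control members, the counts were 143, 51 and 18. Zic1 and Zic4 were found together in 67 of 102 and 135 of 212 members, but their annotated genes overlap by 3398 bases on chromosome 9 and whether counting used the strand is not stated, so UMIs of the pair cannot be told apart with certainty. At the edge of the gate, 20 Sim1 het and 49 control members had exactly 2 factor UMIs, 28 and 50 had a single Otp UMI, and 15 and 20 had a single Trh UMI. Just outside it lay 40 Sim1 het and 75 control cells with Otp, fewer than 2 Trh UMIs and a single factor UMI, and 16 Sim1 het and 25 control cells that met every other limit but had 2 or more Trh UMIs.

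By their markers the members were neurons of the glutamate type. Slc17a6, the vesicular glutamate transporter of the hypothalamus, was at 765 CPM in Sim1 het members and 549 CPM in control members, against 784 and 612 CPM in other cells. Gad1, which makes GABA, had 0 UMIs in Sim1 het members and 1 UMI in control members. Gad2, the second GABA enzyme, was at 65.2 and 24.7 CPM in members against 49.1 and 28.6 CPM in other cells. Of 16 measured genes shared by all neurons, 0 were 2-fold higher in members in both libraries and 1 was lower, the neurofilament gene Nefm, at 130 and 94.0 CPM in members against 574 and 429 CPM in other cells. Genes that define glia were scarce: Fabp7 of radial glia had 4 UMIs in Sim1 het members and 3 in control members, Slc1a3 had 1 and 0, and the oligodendrocyte factor Olig1 had 0 in both. As a whole the 12 genes of the astrocyte and radial glia list summed to 430 and 261 CPM in members, against 790 and 591 CPM in other cells, most of it from Ttyh1 and Ptprz1, which stood near their level in other cells, and 3 of the 12 had no UMI in any member. Of 8 microglia genes 7 had no UMI in any member. Of the markers given for these cells, Otp, Fezf1, Zic1 and Zic4 were read by the gate, and Cbln1 and Car10, which were not, were higher in members as described below. Cbln1 and Car10 came with the gate, which was chosen with earlier results of these data known, so their levels are no independent support.

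Members also resembled each other in genes the gate had not read. With the gate genes, Sim1, Xist, Tsix, and Y-linked and mitochondrial genes left out, the 20 nearest cells of each member were found over 2000 variable genes and 30 principal components. Cells were not thinned for this search although members were deeper, and genes beside the gate genes were not left out. The part of either was not tested. Members made up 36.8% of the neighbours of Sim1 het members and 37.3% of those of control members, although they were 5.97% of all cells. Cells of the same kind with more Trh supplied 5.74% and 4.27% of neighbours, against 0.779% of all cells. Other Otp cells supplied 20.5% and 20.4%, and cells without Otp most of the rest, so members were enriched around each other without being closed off. At least 5 of the 20 neighbours were members for 72.5% of Sim1 het and 68.9% of control members, against 4.89% and 8.06% of other cells.

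Outside the gate genes, the leading genes of members included Zic2 and Zic5, the transcription factor genes Gsc, Six3 and Ebf1, and Cbln1 and Car10. Of 9815 genes compared (those with at least 10 UMIs expected in members), 34 were at least 2-fold higher in members in both libraries (0.346%) and 169 were at least 2-fold lower in both (1.72%). Both shares are the background for the counts of listed genes in members given here. The 34 included 4 of the gate genes, which the choice of cells fixed, and 4 genes with clone names that were kept out of the ranking. The ranking by the interval bound nearer 0 in the less extreme library required only 30 UMIs over all cells and gave 24 genes. Of these, 22 were at least 2-fold higher in both libraries, with Calb2 and Zdbf2 just under that limit in 1 or both. Only 19 of the 24 had at least 10 UMIs expected in members, and 17 of them were among the 34. Gsc, Rprml, Lgals7 and Fam107a were among those below that filter. Fam107a reached 30 UMIs only with its 15 in members, since other cells held 29.

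Zic5 and Zic2 stood at the head of the list. Zic5 (chromosome 14 from 122456795 to 122465677, mm10) was at 62.3 CPM in members and 4.55 CPM in other cells of the Sim1 het library, and at 97.3 and 11.3 CPM in the control library. Zic2, on the same chromosome, was at 97.8 CPM in members and 5.94 CPM in other cells of the Sim1 het library, and at 84.1 and 10.98 CPM in the control library. Both were several-fold higher in members in each library, with log2 ratios between 2.76 and 3.5, while Fezf2, the paralogue of Fezf1 that marks deep-layer neurons of the cortex, was lower, with 1 and 4 UMIs in members. Zic2 and Zic5 were caught together in some members and apart in others: 23 Sim1 het members had Zic2 and 15 had Zic5, with both in 8, and of control members 35 had Zic2 and 43 had Zic5, with both in 12.

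The sequences around the start sites of 4 of these genes are shown because they lie at the 2 Zic pairs and at Clybl, a neighbour of one of them described below. They are the RefSeq promoter windows of build GRCm38.p6 (the same assembly as mm10), 250 bases before to 50 bases after the start, written 5′ to 3′ in lower case with each CG pair in capitals.
Zic1 (chr9:91365719-91366018, minus strand): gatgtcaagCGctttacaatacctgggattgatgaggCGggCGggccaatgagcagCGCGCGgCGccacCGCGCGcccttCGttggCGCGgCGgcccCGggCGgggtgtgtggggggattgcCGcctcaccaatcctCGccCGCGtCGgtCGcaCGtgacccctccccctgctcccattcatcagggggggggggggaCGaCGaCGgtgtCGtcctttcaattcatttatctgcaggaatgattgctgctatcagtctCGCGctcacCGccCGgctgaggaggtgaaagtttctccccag
Zic4 (chr9:91368722-91369021, plus strand): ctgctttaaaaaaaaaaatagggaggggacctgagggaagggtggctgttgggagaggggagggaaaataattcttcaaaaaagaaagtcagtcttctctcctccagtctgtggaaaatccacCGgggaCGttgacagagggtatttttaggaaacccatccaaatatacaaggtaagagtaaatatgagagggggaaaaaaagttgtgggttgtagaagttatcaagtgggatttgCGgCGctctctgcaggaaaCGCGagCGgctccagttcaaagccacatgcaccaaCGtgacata
Zic5 (chr14:122465609-122465908, minus strand): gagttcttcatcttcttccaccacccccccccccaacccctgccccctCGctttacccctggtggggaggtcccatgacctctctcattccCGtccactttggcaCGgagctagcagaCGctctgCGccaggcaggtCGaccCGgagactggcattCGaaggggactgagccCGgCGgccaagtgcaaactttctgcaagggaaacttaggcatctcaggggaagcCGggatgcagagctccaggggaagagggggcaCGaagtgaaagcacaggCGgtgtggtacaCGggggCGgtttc
Clybl (chr14:122181444-122181743, plus strand): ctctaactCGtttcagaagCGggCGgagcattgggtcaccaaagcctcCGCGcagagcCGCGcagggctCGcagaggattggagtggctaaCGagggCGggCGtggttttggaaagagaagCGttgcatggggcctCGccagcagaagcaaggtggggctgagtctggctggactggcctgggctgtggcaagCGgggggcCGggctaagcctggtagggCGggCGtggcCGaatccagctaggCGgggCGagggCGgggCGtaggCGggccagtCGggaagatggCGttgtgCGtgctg
The windows of Zic1, Zic5 and Clybl held 31, 15 and 26 CG pairs and that of Zic4 held 8, against a median of 7 over 27025 RefSeq promoter windows and an upper quartile of 21. Of the 24 leading genes, 18 had a window in the table. None of those 18 and none of the 5 gate genes held the homeodomain core TAATTA (5.31% of all windows do) or the core CCTGCTG that Zic factors are known to bind (10.4%), read on both strands. The motif TACGTG, known as a binding site of SIM proteins with their partner ARNT, was found in 1 of the 18, Fam107a, and in 3.16% of all windows. It is shown with the match, which stands on the opposite strand as CACGTA, in capitals.
Fam107a (chr14:8317558-8317857, minus strand): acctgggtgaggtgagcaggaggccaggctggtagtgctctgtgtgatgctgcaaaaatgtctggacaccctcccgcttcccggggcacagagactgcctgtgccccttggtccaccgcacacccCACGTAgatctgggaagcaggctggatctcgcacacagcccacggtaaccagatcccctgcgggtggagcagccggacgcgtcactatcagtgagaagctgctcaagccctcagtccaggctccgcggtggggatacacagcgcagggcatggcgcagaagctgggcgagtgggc
A match of letters is a description and not a site that was measured.

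Other transcription factors of the list are known from the early forebrain and eye. Six3, a homeobox factor of the anterior forebrain, was at 77.1 CPM in members and 13.7 CPM in other cells of the Sim1 het library, and at 51.1 and 13.5 CPM in the control library. Mab21l2, needed for the eye to form, was at 65.2 CPM in members and 9.70 CPM in other cells of the Sim1 het library, and at 62.7 and 11.3 CPM in the control library. Gsc, the homeobox gene Goosecoid first known from the organizer of the early embryo, was at 26.7 against 2.18 CPM and at 84.1 against 4.39 CPM, and it was found in 6 of 102 Sim1 het members and 21 of 212 control members. Ebf1 was at 35.6 against 6.53 CPM and at 47.8 against 17.9 CPM. At this depth such levels give fewer than 1 UMI per cell on average, so the counts of cells do not show whether all members or some of them carried these genes.

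Genes of signalling and adhesion formed the next group. Cbln1 (chromosome 8 from 87468405 to 87472609, mm10), a secreted organizer of synapses, was at 178 CPM in members and 40.6 CPM in other cells of the Sim1 het library, and at 196 and 55.6 CPM in the control library. Car10 (chromosome 11 from 93098028 to 93601749), a carbonic anhydrase-related protein without enzyme activity, was at 682 and 188 CPM in the Sim1 het library, and at 602 and 229 CPM in the control library. The markers given with the gate were thus 4.39-fold and 3.53-fold higher for Cbln1 and 3.63-fold and 2.63-fold higher for Car10. Lrrtm3, a postsynaptic neurexin ligand, was at 104 CPM in Sim1 het members and 94.0 CPM in control members, against 47.5 and 34.5 CPM in other cells. Of 24 measured neurexins and neurexin ligands these 3 were at least 2-fold higher in both libraries and 2 were lower, among them Nxph4 with 3 UMIs in Sim1 het members and 12 in control members. The neurexin gene Nrxn3 was close to other cells, at log2 ratios of 0.22 and 0.12, and the median of the list was 0.10, against -0.02 over all genes.

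Among receptors, Trhr, which binds the peptide made from Trh, was at 38.5 CPM in members and 8.71 CPM in other cells of the Sim1 het library, and at 36.3 and 10.1 CPM in the control library. Trhde, which encodes the enzyme that degrades that peptide, was at log2 ratios of 1.15 and 1.19 from 16 and 27 UMIs. Against the cells that met the gate but for 2 or more Trh UMIs, Trhr did not differ beyond counting error, at 38.5 CPM in members and 23.5 CPM in those cells of the Sim1 het library (log2 ratio 0.51 [-1.43 to 3.91]) and at 36.3 and 32.7 CPM in the control library (0.11 [-1.59 to 2.53]). Trhr lay in 9 of 102 Sim1 het members and 20 of 212 control members. Of 16 measured receptors and signals of energy balance, Trhr was the 1 higher and Gpr83 the 1 lower, and Mc4r, the melanocortin receptor, had 1 UMI in Sim1 het members and 4 in control members.

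Calb2, which encodes the calcium-binding protein calretinin, was at 691 CPM in members and 246 CPM in other cells of the Sim1 het library, and at 520 and 294 CPM in the control library, with log2 ratios of 1.48 and 0.82. Zdbf2, an imprinted gene expressed from the paternal copy, was at 439 and 223 CPM in the Sim1 het library, and at 411 and 231 CPM in the control library. Against other Otp cells with fewer than 2 Trh UMIs, Zdbf2 did not differ beyond counting error. Its log2 ratios there were 0.24 [-0.05 to 0.53] in the Sim1 het library and -0.13 [-0.35 to 0.08] in the control library. Vwc2, a secreted antagonist of bone morphogenetic proteins, Plcd4, a phospholipase, Lhfpl2, Pdzrn4, Rprml, Lgals7 and the noncoding gene Dbpht2 completed the group, with log2 ratios between 1.21 and 2 in the 2 libraries.

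**Figure D1:**
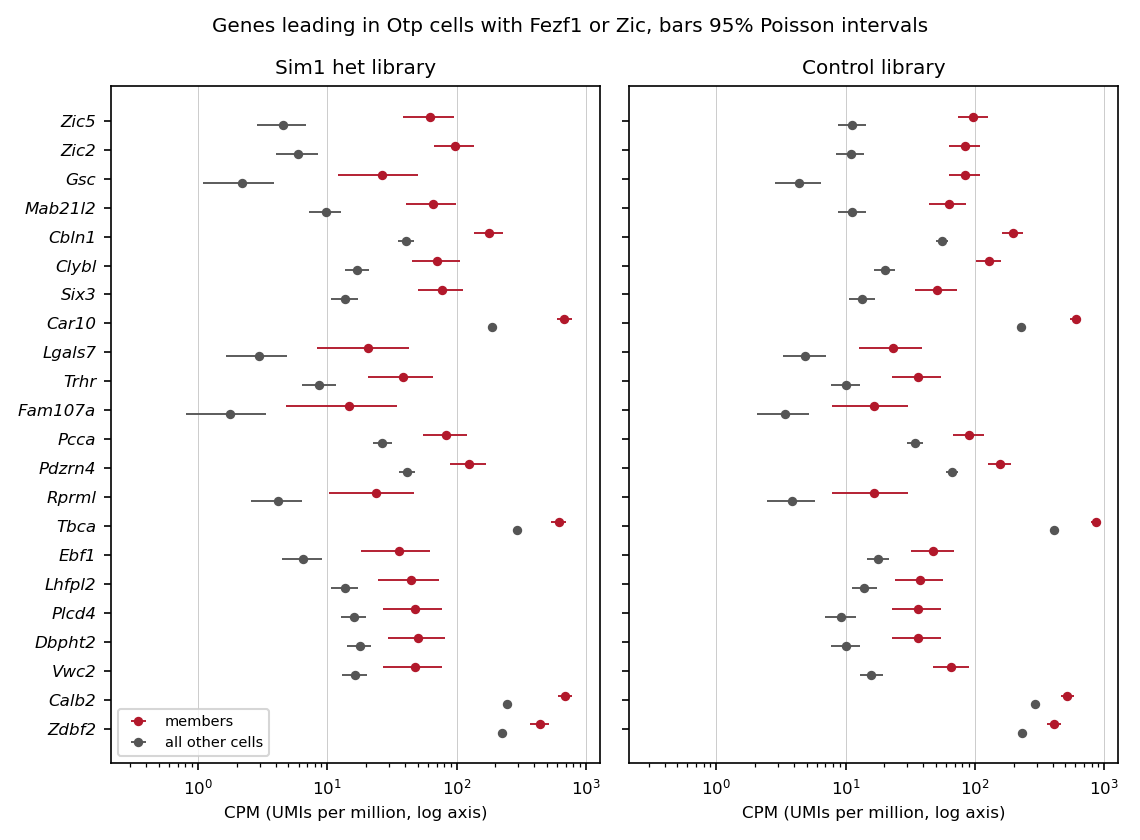
Summed level (CPM, log axis) of 22 of the 24 leading genes in members (red) and in all other cells (grey) of the Sim1 het library (left) and the control library (right), with 95% Poisson intervals. In each library the red point lies to the right of the grey one for the 22 genes, for example for Zic2 at 97.8 against 5.94 CPM in the Sim1 het library.

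Some of the higher genes lie beside gate genes or beside the Zic2 and Zic5 pair, a pattern noticed after the values were seen. Tbca, a cofactor that folds tubulin, ends 32680 bases from Otp on chromosome 13 and was at 617 CPM in members and 296 CPM in other cells of the Sim1 het library, and at 863 and 407 CPM in the control library. Clybl and Pcca, which encode the mitochondrial enzymes citramalyl-CoA lyase and the alpha subunit of propionyl-CoA carboxylase, lie 54561 and 54472 bases from the nearest of Zic2 and Zic5. Clybl was at 71.2 CPM in members and 17.0 CPM in other cells of the Sim1 het library, and at 129 and 20.1 CPM in the control library. Pcca was at 83.0 and 26.7 CPM in the Sim1 het library, and at 90.7 and 34.6 CPM in the control library. C130093G08Rik, a gene known only by a clone name, lies 2771 bases from Fezf1 and had log2 ratios of 2.32 and 2.80. Gm2694, a noncoding gene that overlaps Cbln1, had ratios of 1.62 and 2.34, and without the strand the UMIs of both genes cannot be told apart.

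Not every neighbour shared this. Within 500 kb of the 5 loci, 18 genes had at least 30 UMIs, and 5 of them were at least 2-fold higher in members in both libraries, against 65 of 14600 genes with as many UMIs (0.445%). The windows were chosen after seeing the ranking, so this count is a description. Near Otp, Ap3b1 had log2 ratios of 0.82 and 1.35 and Zbed3 of 0.97 and 1.11, but Wdr41, which lies between Tbca and both of them in distance, had -0.18 and 0.07. Near Zic2 and Zic5, Tm9sf2 had -0.34 and -0.25 and Ubac2 -0.31 and -0.61. When members were set against other Otp cells, which also carry Otp, Tbca was at log2 ratios of 0.54 [0.29 to 0.80] and 0.43 [0.27 to 0.59], below its ratios of 1.05 and 1.08 against all other cells, while Clybl was at 2.38 and 3.60.

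**Figure D2:**
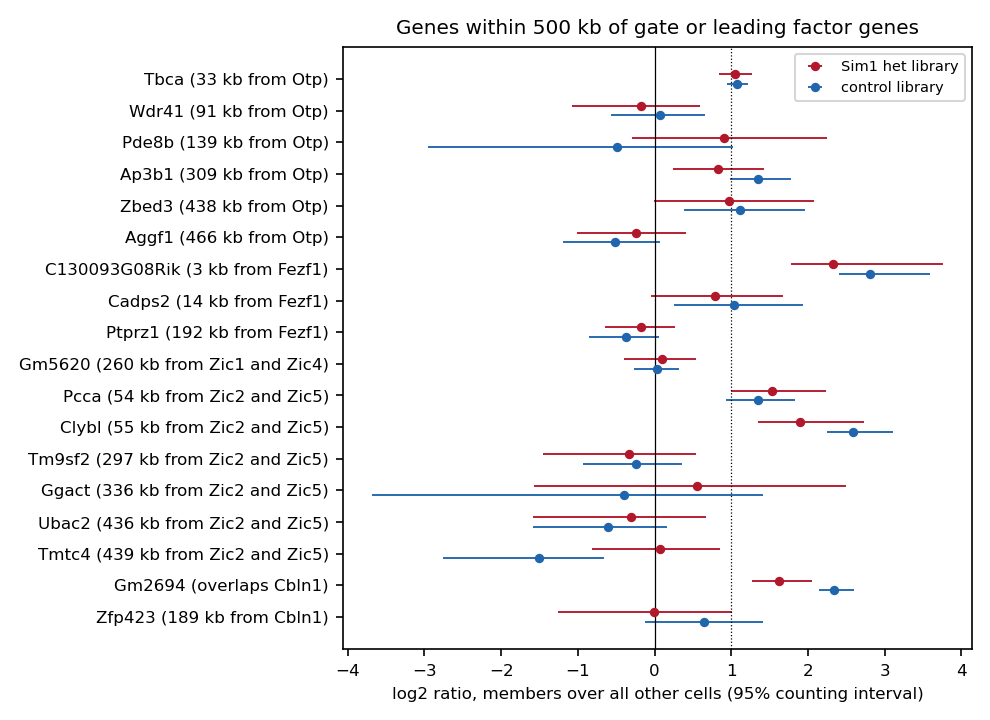
Log2 ratio of members over all other cells for the 18 genes with at least 30 UMIs within 500 kb of Otp, Fezf1, Zic1 and Zic4, Zic2 and Zic5, or Cbln1, ordered within each locus by distance, in the Sim1 het library (red) and the control library (blue) with 95% counting intervals. Tbca, C130093G08Rik, Pcca, Clybl and Gm2694 lie at or beyond the dotted line of 2-fold in both libraries, and genes such as Wdr41 and Tm9sf2 lie at or below 0.

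The genes lowest in members were markers of other Sim1-lineage neurons and of glia. Cck, which encodes cholecystokinin, had 4 UMIs in Sim1 het members and 14 in control members, at 11.9 and 23.1 CPM against 659 and 524 CPM in other cells. Foxb1 and Lhx1, factors of the mammillary region, were at log2 ratios of -4.17 and -4.41 and of -4.29 and -3.58. Pmch, the melanin-concentrating hormone gene, was at 23.7 and 18.1 CPM in members, against 401 and 1472 CPM in other cells. Of 6 measured mammillary and posterior factors 5 were lower and 0 higher, of 4 thalamic factors 3 and 0, and of 8 telencephalic and Neurod factors 5 and 0. Lhx5, the remaining one of the mammillary list, was near its level in other cells, at 94.9 and 84.1 CPM in members against 86.1 and 79.2 CPM.

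Among 12 measured factors of the paraventricular nucleus, 0 were higher and 2 lower by 2-fold in both libraries. Over all genes compared the shares were 0.346% and 1.72%. The median log2 ratio of the 12 was 0.03. The lower pair were Pou3f3, with 4 UMIs in Sim1 het members and 0 in control members, and Pou3f4, with 1 and 4. Sim1 itself was at 94.9 CPM in Sim1 het members (32 UMIs) and 119 CPM in control members (72 UMIs), against 91.4 and 112 CPM in other cells, so the members expressed it at the level of the whole sort. The homeobox genes Irx3 and Irx5 had 0 UMIs in members of either library.

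Hormone genes were mostly lower in members than in other cells. Of 17 measured neuropeptide genes, 0 were at least 2-fold higher in both libraries and 9 were lower, and the median log2 ratio over them was -1.91. Over all genes compared, 0.346% were higher and 1.72% lower. Oxt had 2 UMIs in Sim1 het members and 22 in control members, of which a single cell held 17. Avp had 15 UMIs in Sim1 het members, at most 2 in any cell, and 573 in control members, of which a single cell held 525; without cells of at least 100 Avp UMIs the log2 ratio of members over other cells was -1.76 in place of -2.66 for the summed libraries. Crh had 7 UMIs in Sim1 het members and 2 in control members, 6 of the 7 in a single cell. Gh, the growth hormone gene of the pituitary, had 94 UMIs spread over 72 of 212 control members with at most 4 in a cell, and 0 UMIs in Sim1 het members, and whether it came from RNA outside the cells was not tested.

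Members carried several peptide genes, each in few cells. Tac1, the substance P precursor, had 124 UMIs in 19 of 102 Sim1 het members and 113 UMIs in 25 of 212 control members. Sst, the somatostatin gene, had 116 UMIs in 13 Sim1 het members and 97 UMIs in 15 control members. Both were concentrated in few cells, with up to 34 and 19 Tac1 UMIs and up to 32 and 45 Sst UMIs in a single member. They were found together in 3 Sim1 het members and in 0 control members. In CPM, Tac1 stood at log2 ratios of 1.21 and 0.15 against other cells and Sst at 1.17 and 0.24, so neither passed 2-fold in both libraries. Gal, the galanin gene, lay in as many members or more, with 37 UMIs in 20 Sim1 het members and 43 UMIs in 32 control members, but at no more than 5 UMIs in a cell. Adcyap1, which encodes the peptide PACAP, lay in 17 Sim1 het and 34 control members, and Penk, the enkephalin precursor, in 8 and 22. Gal, Adcyap1 and Penk were within 2-fold of other cells in both libraries. Nts, the neurotensin gene, had 30 and 15 UMIs and was lower in members, at log2 ratios of -1.39 and -2.37.

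Other functional lists had few or no genes past 2-fold, where 0.346% of all genes compared were higher and 1.72% lower in both libraries. A count of 0 in so short a list lies near those shares. Of 19 cadherins, 18 potassium channels, 19 sodium, calcium and HCN channels, and 27 glutamate and GABA receptors, none was 2-fold higher or lower in both libraries, and the medians lay between -0.02 and 0.09. Of 36 axon guidance genes 3 were lower, among them Epha7, at 38.5 and 19.8 CPM in members against 111 and 83.3 CPM in other cells. Of 15 calcium buffers the 1 lower was Pcp4, at 554 and 460 CPM against 1785 and 1382 CPM.

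Shares of cells were compared after thinning each cell to 1000 UMIs, which kept 94 of 102 Sim1 het members and 204 of 212 control members. Car10 was found in 31 of 94 Sim1 het members (33.0% [23.6 to 43.4]) and 83 of 204 control members (40.7% [33.9 to 47.8]), against 13.0% and 16.8% of other cells. Cbln1 was found in 16.0% [9.22 to 24.95] and 12.7% [8.50 to 18.1] of members, against 3.48% and 4.47% of other cells. Calb2 was found in 42.6% [32.4 to 53.2] and 32.8% [26.4 to 39.7] of members, against 14.1% and 15.8% of other cells. In glia-like cells, which should lack these genes, none of the 3 was found in 19 Sim1 het and 20 control cells, which allows up to 15.8% and 15%, so background cannot be bounded below that. Thinned to 1500 UMIs, which kept 82 Sim1 het and 161 control members, Car10 was found in 56.1% [44.7 to 67.0] and 52.8% [44.8 to 60.7] of them, so no order of the libraries is read from these shares. Unthinned, the shares of members with a Car10 UMI were 57.8% and 65.1%. Zic5 was found in 6.38% and 7.84% of members, against 0.497% and 1.30% of other cells.

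A pair of populations lay closest to the gate. Cells that met it except for 2 or more Trh UMIs (16 Sim1 het and 25 control cells, the Trh-rich counterparts) shared most of the leading genes with members. Zic5 was at 62.3 CPM in members and 93.9 CPM in Trh-rich cells of the Sim1 het library, and at 97.3 and 87.3 CPM in the control library. Zic2, Clybl and Mab21l2 likewise had intervals of the ratio that held 0 in both libraries. Six3 was lower in members than in Trh-rich cells of the Sim1 het library, at 77.1 and 176 CPM (log2 ratio -1.08 [-2.16 to -0.17]). In the control library Six3 was at 51.1 and 109 CPM, with an interval that held 0 (-0.95 [-2.16 to 0.10]). Among the given markers that the gate had not read, Car10 was higher in members in both libraries. It was at 682 CPM in members and 282 CPM in Trh-rich cells of the Sim1 het library, and at 602 and 207 CPM in the control library. Its log2 ratios had intervals of [0.67 to 1.95] and [0.87 to 2.29]. Gsc had 9 UMIs in Sim1 het and 51 UMIs in control members and 0 in the Trh-rich cells of both libraries, where 3 UMIs would be 35.2 and 32.7 CPM.

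Cbln1 did not differ beyond counting error in the Sim1 het library, at 178 CPM in members and 164 CPM in Trh-rich cells, and was lower in members of the control library, at 196 and 349 CPM.

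The Trh-rich cells had more Cbln2. Cbln2, a relative of Cbln1, was at 160.1 CPM in members and 645 CPM in Trh-rich cells of the Sim1 het library, and at 191 and 578 CPM in the control library. Rspo3, a secreted enhancer of Wnt signalling, had 0 UMIs in all 314 members, against 2 and 7 UMIs in the Trh-rich cells. Ghrh had 2 UMIs in members of each library, against 1 and 12 UMIs in the Trh-rich cells. Rspo3, Sema4b, Gng8, Adra1a, Rassf5 and Klhl40 were named by the same rule from at most 12 UMIs each in the Trh-rich cells of the summed libraries. Mrps10, Col11a1, Tox2 and Foxp1 were higher in members from at most 11 UMIs each in those cells. Sst had 116 UMIs in members and 0 in Trh-rich cells of the Sim1 het library, but was at 160.0 and 120.0 CPM in the control library (0.38 [-0.49 to 1.46]). RMST-1 had 16 and 24 UMIs in members and 0 in Trh-rich cells, and the lower bound of its log2 ratio was below 0 in each library, at -0.04 and -0.14.

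Other Otp cells with fewer than 2 Trh UMIs (295 Sim1 het and 548 control cells) differed more. Cbln1 was at 178 CPM in members and 17.6 CPM in these cells of the Sim1 het library, and at 196 and 50.4 CPM in the control library. Clybl, Zic5 and Zic2 were higher in members in both libraries, and Car10 was higher at log2 ratios of 1.39 and 1.04. The other Otp cells held the hormone neurons: Avp was at 44.5 CPM in members and 7595 CPM in other Otp cells of the Sim1 het library, and at 945 and 20156 CPM in the control library. Crh was at 20.8 and 281 CPM in the Sim1 het library, and at 3.30 and 148 CPM in the control library. Pou3f4, a factor of that lineage, had 1 and 4 UMIs in members against 68 and 163 UMIs in other Otp cells. Nkx2-4, Neurod6, Npy and Sowaha followed the same direction. Cldn5 of endothelial cells was named higher from 13 UMIs in 1 control member alone, and Dio3, Lefty2 and Adamts19 from 12, 15 and 8 UMIs in all members.

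**Figure D3:**
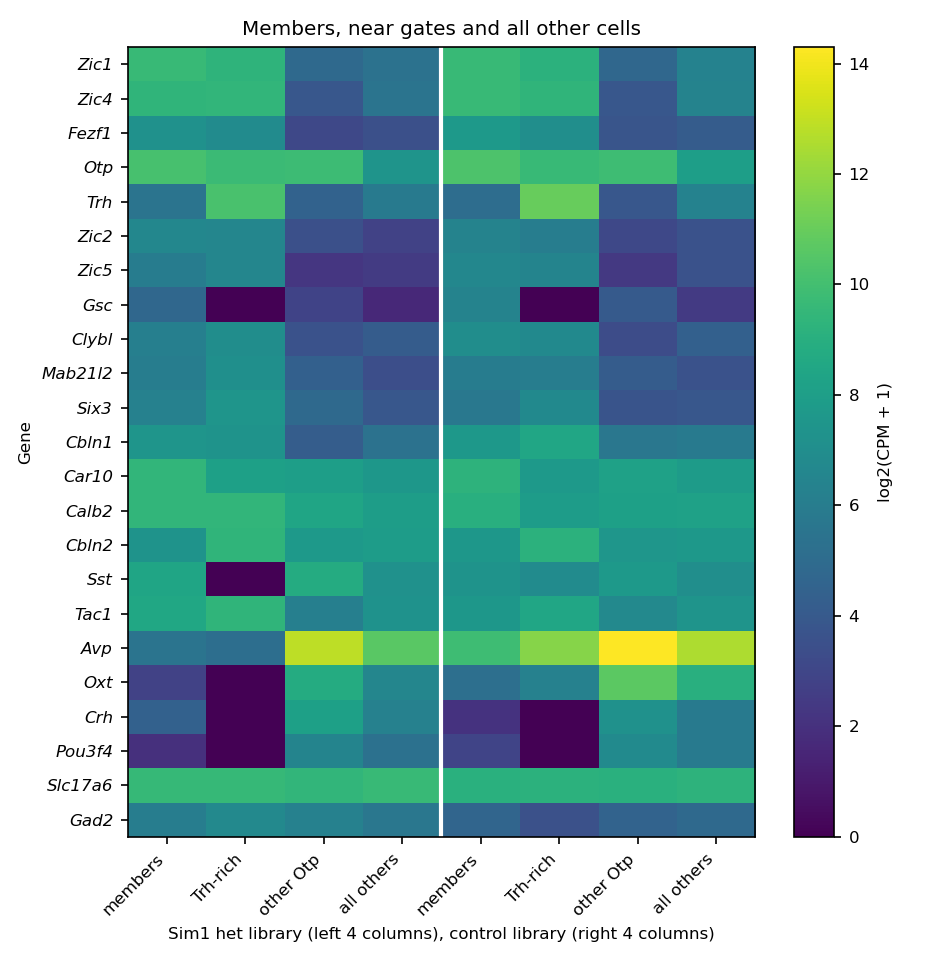
Level (log2 of CPM + 1) of gate genes, leading genes and peptide genes in members, Trh-rich counterparts, other Otp cells and all other cells, in the Sim1 het library (left 4 columns) and the control library (right 4 columns). Members and Trh-rich cells share Zic2, Zic5 and Clybl, Gsc is at 0 in the Trh-rich cells, and Avp is highest in the other Otp cells at 7595 and 20156 CPM.

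Among Otp cells with fewer than 2 Trh UMIs, the levels of some leading genes also differed by how many factor UMIs a cell held, without a common order. In Sim1 het cells the sum of Zic2 and Zic5 was at 5.66 CPM at 0 factor UMIs, 77.0 at 1, 197 at 2, 65.5 at 3, 88.3 at 4 to 5 and 237 at 6 or more. In control cells the same sum was at 3.98, 69.3, 68.6, 136, 122 and 293 CPM. Clybl was at 7.07, 44.0, 39.5, 49.1, 77.3 and 88.9 CPM in Sim1 het cells, and at 4.78, 40.4, 42.9, 62.9, 116 and 205 CPM in control cells. Cells with 1 factor UMI, just outside the gate, thus already stood above those with none. Calb2 had no steady increase past 1 factor UMI, at 287, 704, 829, 753, 740 and 578 CPM in Sim1 het cells and 245, 508, 609, 493, 456 and 528 CPM in control cells. Mab21l2 was highest at 2 factor UMIs in both libraries, at 316 and 111 CPM, and Six3 and Gsc went up and down over the steps. Cbln1 showed a step instead, at 43.8 CPM at 0, 98.2 at 1 and between 167 and 222 CPM from 2 factor UMIs on in control cells. Sst was highest at 1 factor UMI, just outside the gate, in both libraries. It was at 296, 1618, 553, 884, 99.3 and 185 CPM in Sim1 het cells. In control cells Sst was at 155, 595, 454, 62.9, 231 and 8.38 CPM. Depth moved with the steps, since the median cell with 6 or more factor UMIs had 3635 UMIs in the Sim1 het library and 3604 in the control library, against 2217 and 2095 at 0, and its part was not tested. Sim1 had no steady order in Sim1 het cells, at 126, 88.1, 78.9, 115, 77.3 and 104 CPM. In control cells it was at 175, 219, 171, 136, 161 and 58.7 CPM. It was thus lowest in control cells with 6 or more factor UMIs [32.1 to 98.4], against [153 to 200] at 0.

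**Figure D4:**
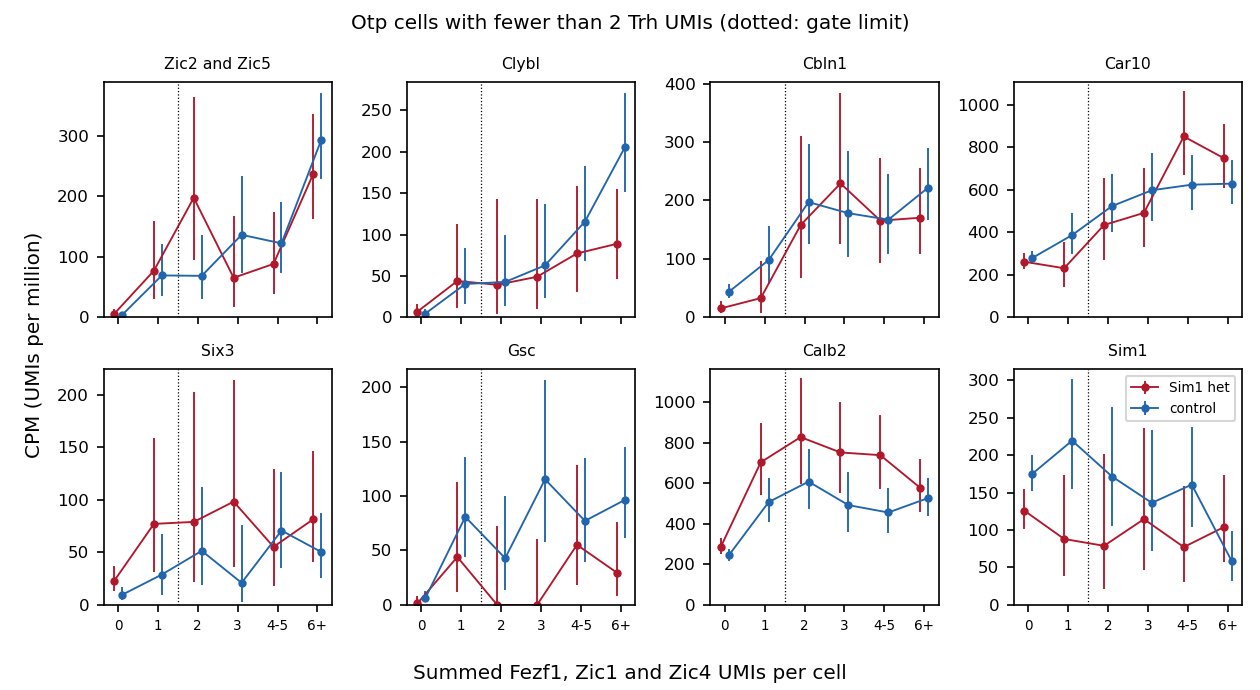
Level (CPM, with 95% Poisson intervals) of 8 genes or gene sums in Otp cells with fewer than 2 Trh UMIs, by the summed Fezf1, Zic1 and Zic4 UMIs of the cell, in Sim1 het (red) and control (blue) cells; the dotted line is the limit of the gate. The Zic sum and Clybl are highest at 6 or more factor UMIs in both libraries. The Zic sum is also at 197 CPM at 2 factor UMIs in Sim1 het cells. Car10 is highest at 4 to 5 in Sim1 het cells and at 6 or more in control cells, and Cbln1 is level from 2 on. Sim1 has no steady order in Sim1 het cells and is lowest at 6 or more in control cells.

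Members with Fezf1 held more Tac1 than members without it, a split added after the values were seen because few members had Fezf1 alone. Tac1 was at 761 CPM in the 30 Sim1 het members with a Fezf1 UMI and 90.9 CPM in the 72 without, and at 356 and 60.4 CPM in the 69 and 143 control members. The log2 ratios were 2.97 [2.34 to 3.87] and 2.49 [1.87 to 3.32], and of the members with Tac1, 10 of 19 and 16 of 25 carried Fezf1. Lmo4, a LIM-domain cofactor, was at 416 and 207 CPM in the Sim1 het library, and at 352 and 121 CPM in the control library. Ebf1 was at 64.6 and 15.2 CPM in the Sim1 het library and at 77.4 and 25.9 CPM in the control library, and Cbln1 at 244 and 131 CPM and at 267 and 144 CPM. Members with Fezf1 were the deeper ones, with medians of 4379.5 and 3469 UMIs against 1985.5 and 1976, and the part of depth in this split was not tested.

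Members without Fezf1 had more Cbln2 and Six3. Cbln2 was at 64.6 CPM in members with Fezf1 and 227 CPM in those without in the Sim1 het library, and at 85.2 and 270 CPM in the control library. Six3 was at 35.9 and 106 CPM in the Sim1 het library, and at 23.2 and 71.9 CPM in the control library. Nfib had 0 UMIs in the 30 and 69 members with Fezf1, against 8 and 11 UMIs in those without. In the narrower split, 3 Sim1 het and 18 control members with Fezf1 and no Zic UMI had 0 and 1 Sst UMIs, against 85 and 67 in members with Zic alone. Zic5 and Six3 had 0 UMIs in those 21 cells, and Ebf3 had 1 and 8, against 1 and 0 in members with Zic alone. The other genes named for that split had at most 10 UMIs each in the 18 control members with Fezf1 alone: Ddx56, Lrrc6, Sall3, Parm1, Ebf2 and Igf1 were higher there and Pole3, Tcf4, Clybl and Smarca2 lower.

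Between genotypes the genes that define members were close. Otp was at 1106 CPM in Sim1 het members and 1265 CPM in control members (log2 ratio -0.19 [-0.38 to -0.01]). Zic1 was at 792 and 787 CPM (0.01 [-0.21 to 0.23]), Zic4 at 661 and 782 CPM (-0.24 [-0.48 to -0.01]) and Fezf1 at 151 and 206 CPM (-0.44 [-0.95 to 0.03]). These 4 levels are bounded by the gate. Other cells exclude the members, so the gate shapes their levels too. There Otp was at 165 CPM in the Sim1 het library and 255 CPM in the control library, and Zic1 at 41.2 and 79.1 CPM. Sim1 was at 94.9 CPM in Sim1 het members and 119 CPM in control members (-0.32 [-0.97 to 0.30]), a difference not detectable at this depth. Which part of Sim1 was lost is not stated, so counts of the 3' end may not check the genotype.

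Of 7232 genes with at least 20 UMIs over members, 885 were at least 1.5-fold higher in Sim1 het members (12.2%) and 800 at least 1.5-fold lower (11.1%), which is the background for any named gene. Of the 24 leading genes, Gsc, Clybl and Zic5 were past that limit, all lower, a share near the background. The interval left out 0 for 4 of the 24. Calb2 was higher in Sim1 het members (691 against 520 CPM, log2 ratio 0.41 [0.16 to 0.66]). Gsc was lower, with 9 UMIs in 6 of 102 Sim1 het members and 51 UMIs in 21 of 212 control members (-1.55 [-2.86 to -0.62]). Clybl was lower at 71.2 against 129 CPM (-0.83 [-1.58 to -0.18]), and Tbca at 617 against 863 CPM (-0.48 [-0.72 to -0.25]). Cbln1 and Car10 were at log2 ratios of -0.14 [-0.61 to 0.32] and 0.18 [-0.06 to 0.42], both with intervals that held 0. Tbca was lower by the same measure in other cells (-0.46 [-0.55 to -0.37]).

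The gene highest in Sim1 het members was Hspa8, a heat shock family chaperone, with 59 UMIs in 28 of 102 Sim1 het members and 8 UMIs in 8 of 212 control members (log2 ratio 3.46 [2.66 to 5.01]). Other cells showed the same direction, at 3.99 [3.72 to 4.29], and the difference was at least as large there. Jun, an immediate early gene, was at 178 CPM in Sim1 het members and 52.8 CPM in control members (1.70 [1.11 to 2.42]), and at 98.9 and 72.5 CPM in other cells (0.45 [0.26 to 0.64]). Hdac9, a histone deacetylase gene, had 8 UMIs in 7 Sim1 het members and 0 in control members, but 0.01 [-0.54 to 0.55] as its log2 ratio in other cells. Smoc1 with 15 and 3 UMIs, Nup133 with 24 and 8 and Cntn6 with 14 and 3 were also higher in Sim1 het members, and their log2 ratios in other cells lay between 0.16 and 0.28 with intervals that held 0. Stox1 had 14 and 3 UMIs, and in other cells it was at 11.5 and 7.77 CPM (0.55 [-0.02 to 1.15]). H2-Bl, Adamts19 and Fbxo17 completed the 10 from at most 12 UMIs each, with the 8 UMIs of Adamts19 in 4 cells, and its log2 ratio of 3.17 was 1.00 without the deepest 1% of cells.

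Among the lowest in Sim1 het members, Gh had 0 UMIs in Sim1 het members and 94 in control members, as in other cells, where it was at 0 and 357 CPM. Avp was lower through the single control cell already described, with a log2 ratio of -4.32 [-5.26 to -3.68], and -0.81 without cells of at least 100 Avp UMIs. Cd24a, a surface glycoprotein of young neurons, was at 32.6 CPM in Sim1 het members and 115 CPM in control members (-1.74 [-2.89 to -0.90]), and at 80.1 and 162 CPM in other cells. The pseudogenes Hmgb1-ps4 and Hmgb1-ps7, which share sequence with Hmgb1, had 1 and 3 UMIs in Sim1 het members against 31 and 35 in control members. Processed pseudogenes as a class had a median log2 ratio of -0.50 both in members and in other cells. Zfp575, Utp14a, Angptl6, Cxxc1 and Cldn5 completed the 10, with 3, 6, 0, 1 and 0 UMIs in Sim1 het members against 32, 43, 14, 19 and 13 in control members, the last from a single cell.

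**Figure D5:**
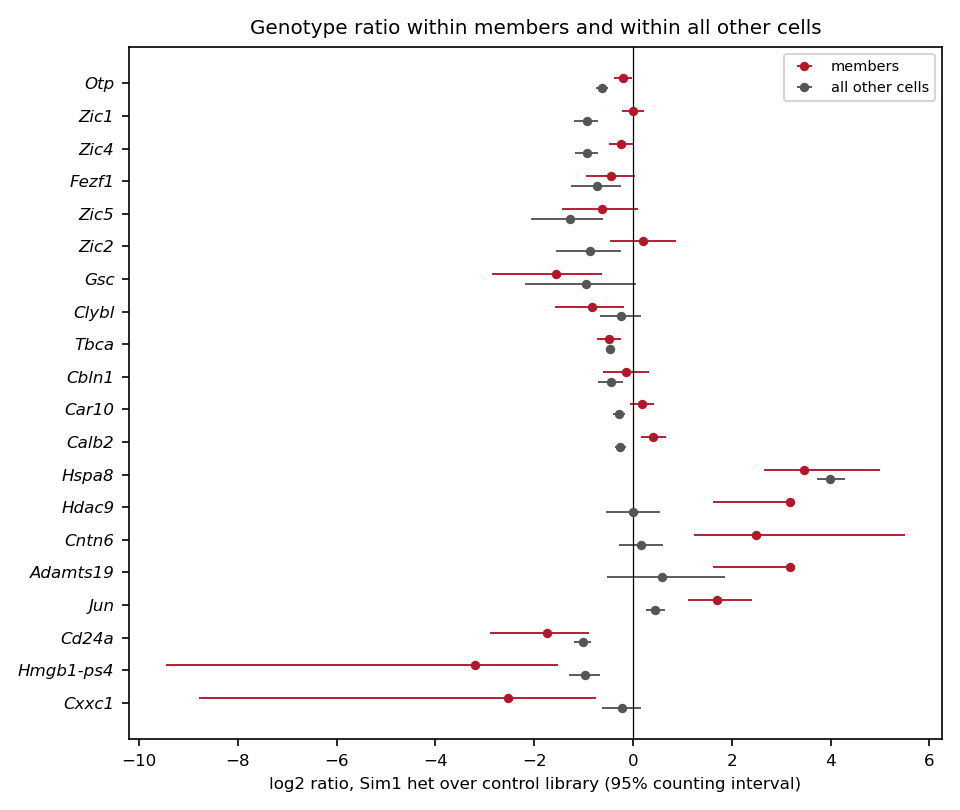
Log2 ratio of the Sim1 het over the control library for gate genes, leading genes and genes named for their difference, within members (red) and within all other cells (grey), with 95% counting intervals; a bar without an arm on one side has no bound there because a group had 0 UMIs. Zic1, Cbln1 and Car10 lie near 0 in members, Gsc and Clybl lie below 0, and Hspa8 is at 3.46 in members and 3.99 in other cells.

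Sex-linked genes differed between the pools. Xist, expressed from the inactive X chromosome, was at 119 CPM in Sim1 het members and 411 CPM in control members, and at 254 and 406 CPM in other cells, while Kdm5d of the Y chromosome was at 35.6 and 4.95 CPM in members and at 28.5 and 15.04 CPM in other cells. Eif2s3y, also of the Y chromosome, did not differ beyond counting error in members, at 35.6 and 29.7 CPM (0.24 [-0.93 to 1.39]), and was at 52.8 and 30.6 CPM in other cells. The part of the mix of sexes in the genotype values of other genes was not tested. By list, glutamate and GABA receptors had 5 of 25 genes higher and 0 lower in Sim1 het members, with a median of 0.33, against 0.27 in other cells. Sodium, calcium and HCN channels had 3 of 16 higher and 0 lower (medians 0.34 and 0.29), and prohormone processing genes 3 of 13 higher and 0 lower (0.39 and 0.23). Young neuron genes had 0 of 10 higher and 2 lower (medians -0.35 and -0.22). The median of each of these lists had the same sign in members and in other cells. Lists with opposite signs were neuropeptides (-0.07 in members and 0.18 in other cells), nuclear receptors (0.08 and -0.13) and imprinted genes (-0.09 and 0.07). Factors of the paraventricular nucleus (-0.09 and 0.18) and the other Zic and Fez factors (0.10 and -1.28) also had them. GABA transmission had 2 of 2 genes higher (0.97 and 0.54). Over all compared genes 12.2% were higher and 11.1% lower, the background for these counts.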

How the data were processed

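Hypothalamic cells of 2 pools of mice, sorted for tdTomato, were profiled by Drop-seq, a droplet method that tags the 3′ end of RNA with UMIs, giving 1 Sim1 het and 1 control library. The deposited tables hold raw counts: UMIs per gene and cell, which the authors did not normalize. Per the submitters' processing notes, bcl2fastq, Picard, STAR 2.6.0b, Seurat 3 and the build mm10 were used. No source used here names the counting program, its annotation or its use of strand. The per-library tables were identical to the merged table, all 24905 genes were kept, and 0 columns were left unused.

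Cells with at least 300 detected genes were gated as stated above. Members and gene lists were chosen with earlier results of these data known. Doublets were neither called nor removed; an alternative left out the deepest 1% of cells. Counts were summed over cells, scaled to CPM, and set against all other cells of the same library, and Sim1 het members against control members. Log2 ratios add 1 UMI to the smaller group and the same CPM to the larger. Genes needed at least 10 expected UMIs in members, or 20 UMIs over members for genotypes, to be counted. Cells are not replicates, so no model or p-value was used. Intervals are 95% exact binomial intervals conditional on the summed UMIs for ratios, exact Poisson for levels and Clopper-Pearson for shares, and they and the limit of 3 UMIs or cells for a count of 0 cover counting error only. The interval calculation was tested on simulated data with known ratios.

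Named genes were the 24 highest and 10 lowest against all other cells by the interval bound nearer 0 in the less extreme library, the 8 highest and 8 lowest for other comparisons within members or with neighbouring gates, and 10 each way between genotypes, with at least 30 UMIs over all cells and without gate, mitochondrial, ribosomal protein, sex-linked, haemoglobin and clone-named genes. Glia-like cells had at least 4 UMIs over glial marker genes, from at least 2 of them. Of the symbols, 94.3% matched GENCODE M21, which gave positions on mm10. Python 3.11.15, numpy 2.4.6, scipy 1.17.1, scikit-learn 1.9.0 and matplotlib 3.10.9 were used. Some genes that the rules name are not reported here.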

Additional observations from a re-analysis of the deposited data

Results flagged for a closer look

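For 5 genes the libraries or populations moved in opposite directions, with intervals that left out 0 on both sides. None of these differences of differences was tested, since there was 1 library per genotype. Calb2, the calretinin gene, had a log2 ratio of Sim1 het over control of 0.41 in members and -0.26 in other cells. Lmo4, a LIM-domain cofactor, had ratios of 0.42 in members and -0.73 in other cells. Meg3, an imprinted noncoding RNA expressed from the maternal copy, had -0.15 in members and 0.13 in other cells, and as members over other cells it had -0.12 in the Sim1 het library and 0.16 in the control library. Cntn6, a contactin of the synapse, had a ratio of members over other cells of 1.15 in the Sim1 het library and -1.35 in the control library. Scg2, a granin of dense-core vesicles, had 0.35 in the Sim1 het library and -0.27 in the control library.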

How the results depend on the processing

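The ratio of member shares, Sim1 het over control, lay between 0.518 and 0.682 under every gate tried. The shares themselves moved to 3.34% of Sim1 het and 5.81% of control cells with at least 3 factor UMIs, 3.02% and 5.77% with at least 2 Otp UMIs, and 2.29% and 3.36% after thinning to 1000 UMIs. With at least 3 expected UMIs, 60 genes were 2-fold higher and 353 lower in members, and with at least 10 UMIs over members, 1472 genes were higher and 1486 lower between genotypes. The other settings gave 30 to 46 higher and 155 to 225 lower genes in members, and 805 to 1106 higher and 772 to 1086 lower genes between genotypes. Zic4 turned to 0.058 between genotypes when each cell had equal weight, and Smarca2 to 0.023 when any Fezf1 member was set against none; the cause was not tested. Adamts19 was at 1.00 between genotypes without the deepest 1% of cells. Thinned to 1500 in place of 1000 UMIs, the shares of members with a UMI moved past their interval for 6 of 20 values, among them Car10, at 56.1% of Sim1 het and 52.8% of control members, and in control members Cbln1 at 21.1%, Zic2 at 13.0%, Zic5 at 13.7% and Mab21l2 at 9.32%. Leaving out cells of at least 100 Avp UMIs was chosen after seeing the data, as was the 500 kb window. No paired analysis was possible because each genotype had 1 library. Depth limits genes with few UMIs in members, above all in the 3 Sim1 het members with Fezf1 alone.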
